A study of Mus musculus with 6 samples.

Results

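Macrophage marker genes were examined in limb bone of mouse pups aged 1 day, in 3 Hdac3 CKO libraries and 3 wild type (WT) libraries. The set held 37 genes, named by a fixed list of symbols, out of 43346 genes in the deposited count table, and each was found there by its symbol. The list was chosen with earlier results of these data known. Emr1 is the older name of Adgre1 and encodes the surface marker F4/80. Clec7a had 2 overlapping rows in the table, so the 37 genes filled 38 rows. The Hdac3 CKO pups were a conditional knockout of the histone deacetylase gene Hdac3 with Prx1, and the WT pups were the comparison, all on the C57BL/6 strain. The labels do not describe the alleles further, and they do not say whether WT pups carried a Cre transgene or whether a library came from 1 pup. Bones of the hindlimbs and forearms were freed of soft tissue before RNA extraction, and libraries were made with a TruSeq v2 kit for mRNA. Muscle RNA was still present in every library, as the sums of marker genes below show. The series asks what Hdac3 does in bone formation, and the comparison shows how macrophage genes stood in the bones of knockout pups.

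Macrophages are phagocytes that arise from embryonic progenitors and from blood monocytes, and bone holds resident macrophages beside the osteoclasts, which form by fusion of cells of the same lineage. The receptor encoded by Csf1r binds the growth factors encoded by Csf1 and Il34 and is needed for both cell types, and the transcription factor PU.1, encoded by Spi1, sets the myeloid programme. The Prx1 enhancer is widely used to drive Cre in limb bud mesenchyme, which forms bone, cartilage and tendon and does not form blood cells. Several of the genes are also used by other cells of the limb: Itgam and Lyz2 by granulocytes, Lyve1 and Stab1 by endothelium, Cd36 by endothelium and adipocytes, and Apoe, Axl, Maf and Gpnmb by various stromal cells. In bulk RNA, a different number of macrophages and a different amount of RNA per macrophage cannot be told apart.

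Total counts ranged from 43389262 to 50927978 per library. Hdac3 stood at 31.8, 29.4 and 28.3 CPM (read counts scaled to library size, with TMM factors) in Hdac3 CKO libraries, against 48.4, 47.4 and 50.3 CPM in WT libraries, a log2 fold change of -0.71 ± 0.12. The libraries also differed in ways that the genotype labels do not give. Hdac3 CKO replicate 3 and WT replicate 3 were rich in cartilage RNA, with summed levels of 8 cartilage genes of 14307 and 6777 CPM, against 852 to 1535 CPM in the other libraries. Xist stood at 19.3 CPM and the Y-linked gene Ddx3y at 48.1 CPM in Hdac3 CKO replicate 3, while Xist was at 700 CPM or more and Ddx3y at 2.18 CPM or less in every other library.

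Macrophage marker genes were mostly higher in Hdac3 CKO bones. Of the 37 genes, 35 passed the filter on low counts and were tested, 12 rose, 0 fell and 23 did not pass. The test was the quasi-likelihood test of edgeR, with Benjamini-Hochberg adjustment over all tested genes and a threshold of 0.05. The 12 were Emr1, Csf1r, Aif1, Ms4a7, Fcgr1, Fcgr3, Fcer1g, Clec4n, Stab1, Apoe, Gpnmb and Lgmn. They made up 34.3% of the tested members, whose list was not chosen blind to these data. Of all 20210 tested genes 1.12% were called, 0.668% as higher and 0.45% as lower. The estimate was above 0 for 28 members and below 0 for 7, where 50.1% and 49.9% of all tested genes lay on these sides. Without the adjustment 25 members were higher and 1 was lower at a p under 0.05, against 7.68% and 7.0% of all tested genes. DESeq2 called 22 members higher and 0 lower, where it called 2.38% of all tested genes higher. With library totals in place of TMM, edgeR called 2 members higher and 0 lower, and 0.267% of all tested genes higher. The 3 Hdac3 CKO libraries lay above the 3 WT libraries for 24 members and below them for 1, and 11.5% and 10.9% of all tested genes separated in these directions. The median log2 fold change was 0.77 for the tested members and 8.8e-04 for all tested genes. The summed level of the 37 genes was 1822, 1712 and 1652 CPM in Hdac3 CKO replicates 1, 2 and 3, against 1218, 1188 and 1168 CPM in WT replicates 1, 2 and 3. The 22 genes that are less widely used by other limb cells summed to 545, 559 and 514 CPM in Hdac3 CKO libraries, against 309, 323 and 336 CPM in WT libraries. They include Csf1r, whose receptor osteoclasts also need, at a mean of 171 CPM in Hdac3 CKO and 94.8 CPM in WT. They also include Mrc1, at a mean of 92.4 CPM in Hdac3 CKO and 55.7 CPM in WT. Cd68, also among them, had a mean of 54.6 CPM in Hdac3 CKO and 31.4 CPM in WT. Much of the sum of the 22 genes thus came from few genes. The part of RNA of osteoclasts or other cells in that sum was not tested, so it is not a measure of macrophages alone. Of these 22 genes 20 were tested and 6 rose, and 6 of the other 15 rose. Both sums were higher in every Hdac3 CKO library than in any WT library.

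**Figure D1:**
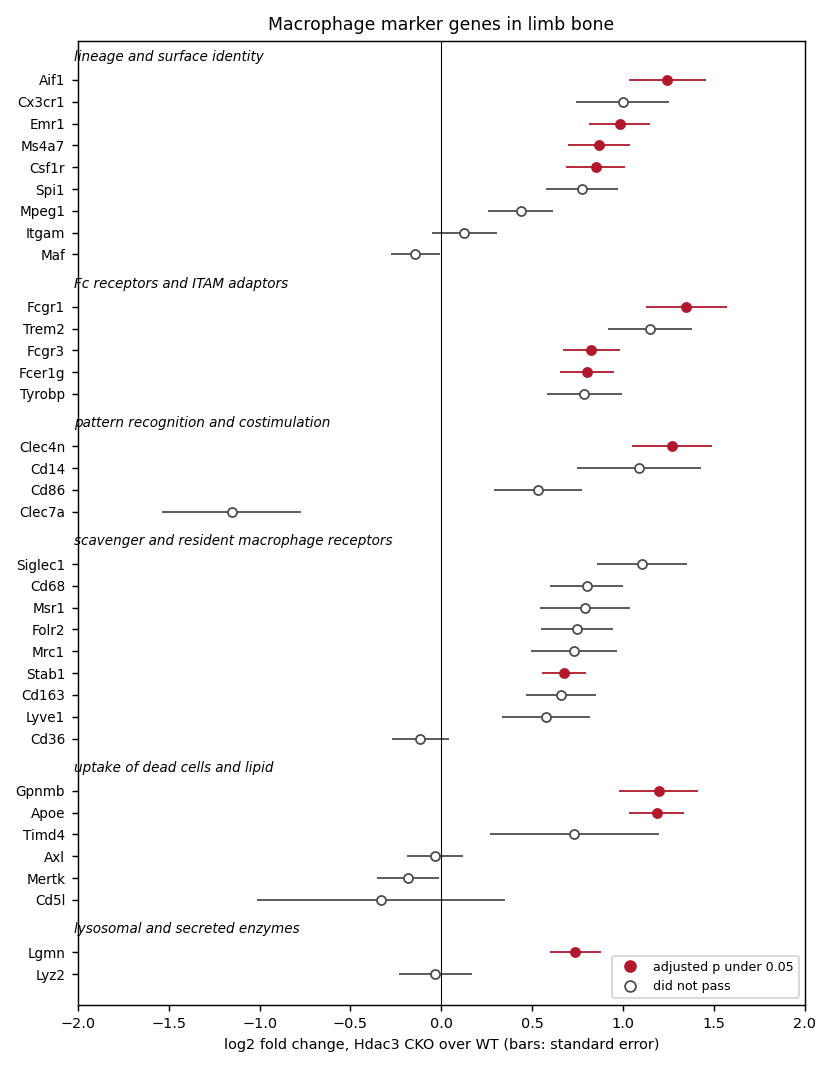
Log2 fold change of Hdac3 CKO over WT for the 35 tested macrophage genes, grouped by role, with standard errors from the fit (n = 3 libraries per genotype). Filled points mark the 12 genes that rose; 28 of the 35 estimates lie above 0, and Clec7a has the lowest estimate at -1.15.

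The number of members called depended on single libraries. Of the 12 genes, 8, 3 or 1 passed without replicate 1, 2 or 3 of Hdac3 CKO, and 0, 0 or 3 without replicate 1, 2 or 3 of WT. Members called in those fits and not among the 12 were Msr1 without Hdac3 CKO replicate 1, Siglec1 without Hdac3 CKO replicate 2, and Cd68 and Tyrobp without WT replicate 3. Among all tested genes, 202, 142 or 41 genes were called without replicate 1, 2 or 3 of Hdac3 CKO, and 26, 34 or 92 without those of WT, against 226 with all libraries. Each of the 12 genes kept a fold change above 0 whichever library was left out. Their choice nearly fixed this outcome, because all their Hdac3 CKO libraries lay above all their WT libraries. It is therefore no separate evidence for a rise. Apoe was called in 4 of these 6 fits, with adjusted p between 0.00709 and 0.0724 in edgeR. Without both cartilage-rich libraries 0 members passed, as did 0 genes in the whole table, and the median of the tested members was 0.86.

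Per unit of length, the members spanned a wide range of levels. On the scale of deposited RPKM (reads scaled by gene length and library size), Apoe, which encodes a lipid carrier, was the highest, at a mean of 92.8 in Hdac3 CKO and 44.5 in WT. Tyrobp was the second in both genotypes, at 56.8 in Hdac3 CKO and 36.1 in WT. Lgmn, at 51.1 in Hdac3 CKO and 33.5 in WT, was the third in Hdac3 CKO, and Lyz2, at 30.2 in Hdac3 CKO and 34.0 in WT, was the third in WT. The library totals that these RPKM imply were 1.15 to 1.29 times the summed counts in Hdac3 CKO libraries and 1.21 to 1.39 times in WT libraries, so RPKM are read here between genes and not between genotypes. The lowest levels were those of Marco (0.0802 RPKM in Hdac3 CKO, 0.0435 in WT), Cd5l (0.0622 RPKM in Hdac3 CKO, 0.0880 in WT) and Vsig4 (0.0202 RPKM in Hdac3 CKO, 0.00765 in WT). Marco and Vsig4 were not tested. Marco had 6, 10 and 10 counts in Hdac3 CKO libraries, against 2, 4 and 9 in WT libraries. Vsig4 had 2, 2 and 1 counts in Hdac3 CKO libraries, against 0, 0 and 2 in WT libraries. Vsig4, Cd5l, Timd4 and Marco are known from macrophages of liver, spleen and body cavities, and these 4 genes reached at most 0.282 RPKM in any library.

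**Figure D2:**
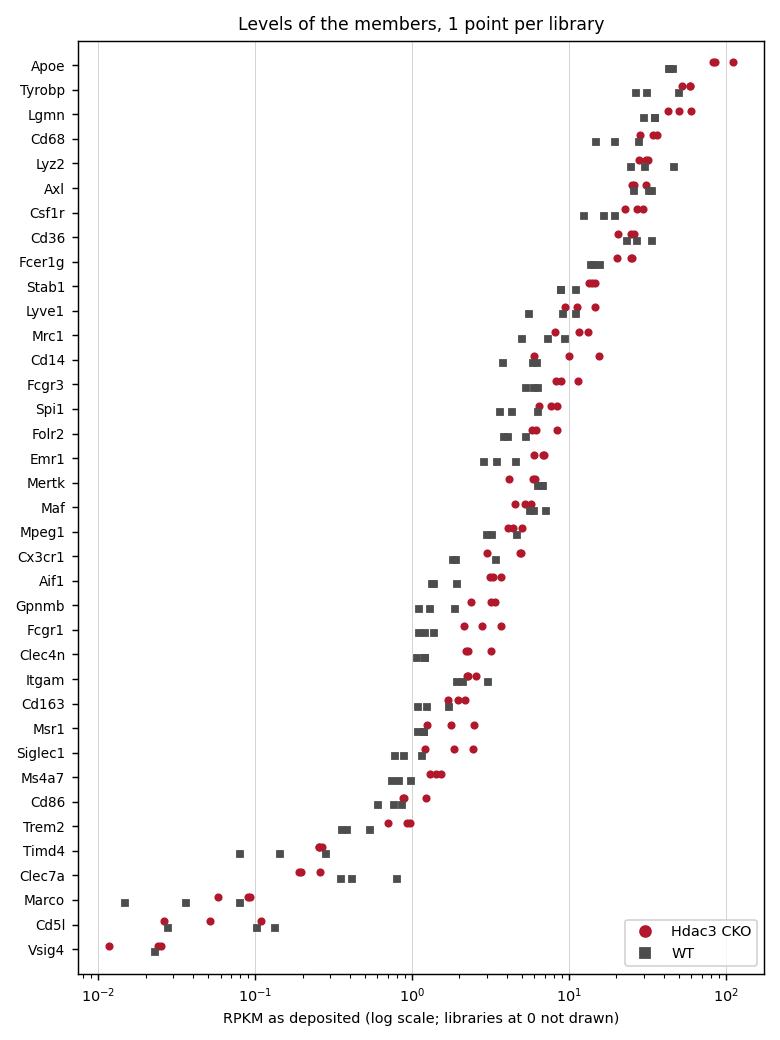
Deposited RPKM of the 37 members on a log axis, with 1 point per library and genes ordered by the Hdac3 CKO mean. Apoe, Tyrobp and Lgmn are at the top, and Marco, Cd5l and Vsig4 at the bottom.

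Among the genes of lineage and surface identity, 4 of 9 rose and 0 fell. Emr1 stood at 29.2, 29.0 and 26.0 CPM in Hdac3 CKO replicates 1, 2 and 3, against 14.9, 16.6 and 11.2 CPM in WT replicates 1, 2 and 3. The lowest Hdac3 CKO library was above the highest WT library. The mean of Emr1 was 28.1 ± 1.8 CPM in Hdac3 CKO and 14.2 ± 2.8 CPM in WT (SD, n = 3 each), and its log2 fold change was 0.98 ± 0.17 (SE; edgeR adjusted p = 0.0306). Csf1r stood at 188, 175 and 149 CPM in Hdac3 CKO libraries, against 80.5, 90.4 and 114 CPM in WT libraries. The genotypes did not overlap, and the narrowest gap was between the replicates numbered 3. The log2 fold change of Csf1r was 0.85 ± 0.16, with an adjusted p in edgeR of 0.0431. In the GENCODE M21 annotation 16.4% of its exon bases are shared with Hmgxb3 on the opposite strand, and reads there could belong to either gene where strand was not used. Aif1, which encodes the actin-binding protein Iba1, stood at 6.56, 7.38 and 6.39 CPM in Hdac3 CKO libraries, against 2.71, 2.35 and 3.54 CPM in WT libraries. It rose by 1.24 ± 0.21 on the log2 scale, the largest rise of this group. Ms4a7, a membrane protein of macrophages, stood at 8.31, 8.90 and 7.72 CPM in Hdac3 CKO libraries, against 4.40, 4.87 and 4.39 CPM in WT libraries. It rose by 0.87 ± 0.17, and the spread within each genotype was small beside the gap.

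The other members of that group did not pass. Cx3cr1, the fractalkine receptor, had a log2 fold change of 1.00 ± 0.26 and Spi1 of 0.77 ± 0.20, and the libraries of neither gene overlapped between genotypes. Mpeg1, which encodes a pore-forming protein of phagosomes, stood at 0.44. Itgam, the integrin subunit CD11b, stood at 0.13 and overlapped between the genotypes, and in the annotation it shares 68.7% of its exon bases with the gene model Gm49368 on the same strand. Maf, a transcription factor of resident macrophages that stromal cells also express, had a log2 fold change of -0.14 ± 0.14, and the genotypes overlapped.

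Of the receptors for the constant region of antibodies and the adaptors of such receptors, 3 of 5 rose and 2 did not pass. For all 5 the Hdac3 CKO libraries lay above the WT libraries. Fcgr1, the high-affinity IgG receptor CD64, stood at 12.5, 7.24 and 9.60 CPM in Hdac3 CKO libraries, against 3.80, 3.99 and 3.72 CPM in WT libraries. WT libraries lay close together, while Hdac3 CKO libraries were more spread. Its log2 fold change of 1.35 ± 0.22 was the largest among the members, with an adjusted p in edgeR of 0.0270. Fcgr3, a low-affinity IgG receptor, stood at 25.9, 20.4 and 19.1 CPM in Hdac3 CKO libraries, against 12.2, 12.3 and 12.3 CPM in WT libraries, and rose by 0.83 ± 0.15. Fcer1g, the signalling chain shared by Fc receptors, stood at 28.7, 28.7 and 23.8 CPM in Hdac3 CKO libraries, against 16.8, 13.5 and 16.3 CPM in WT libraries, and rose by 0.80 ± 0.15. Trem2, a lipid-sensing receptor, and Tyrobp, its adaptor, also known as DAP12, stood at 1.15 ± 0.23 and 0.79 ± 0.21 and did not pass, with edgeR adjusted p of 0.0539 and 0.122. The Fcgr genes are a family of similar sequence, and reads that match several members may have been lost or shared.

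Promoter windows were taken from RefSeq on the GRCm38.p6 build, from 250 bases before to 50 bases after the start, and 26 of the 37 genes matched. They were searched on both strands for GAGGAAG, a core of PU.1 sites, and TGCTGAC, part of the site of the large Maf factors. The PU.1 core was in the windows of 8 of the 26 genes, or 30.8%, where 15.4% of the 27025 genes of the RefSeq table hold it. It was in 2 of the 9 matched genes that rose and in 6 of the 17 others. The Maf motif was in 2 of the 26 genes, or 7.69%, against 5.28% of all genes. A match is a string of letters and does not show that a factor binds there. The windows of Fcgr1 and Fcgr3 are printed because they are the genes that rose and hold the PU.1 core, with those of Trem2 and Itgam as genes that hold it and did not pass. Capitals mark the PU.1 core, written CTTCCTC where it lies on the other strand, and in Fcgr3 also the Maf motif.
Fcgr1 (chr3:96293920-96294219, minus strand): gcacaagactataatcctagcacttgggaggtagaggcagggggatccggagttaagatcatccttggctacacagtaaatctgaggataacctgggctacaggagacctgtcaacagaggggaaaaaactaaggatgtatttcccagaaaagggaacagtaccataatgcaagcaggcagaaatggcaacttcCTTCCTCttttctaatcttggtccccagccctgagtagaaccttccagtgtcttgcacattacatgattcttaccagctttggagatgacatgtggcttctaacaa
Fcgr3 (chr1:171059354-171059653, minus strand): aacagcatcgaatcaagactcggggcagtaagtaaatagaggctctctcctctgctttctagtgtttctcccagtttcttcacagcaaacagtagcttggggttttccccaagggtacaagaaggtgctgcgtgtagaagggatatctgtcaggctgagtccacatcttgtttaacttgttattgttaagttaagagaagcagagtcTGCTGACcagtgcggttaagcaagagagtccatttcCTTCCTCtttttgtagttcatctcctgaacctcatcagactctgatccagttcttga
Trem2 (chr17:48346151-48346450, plus strand): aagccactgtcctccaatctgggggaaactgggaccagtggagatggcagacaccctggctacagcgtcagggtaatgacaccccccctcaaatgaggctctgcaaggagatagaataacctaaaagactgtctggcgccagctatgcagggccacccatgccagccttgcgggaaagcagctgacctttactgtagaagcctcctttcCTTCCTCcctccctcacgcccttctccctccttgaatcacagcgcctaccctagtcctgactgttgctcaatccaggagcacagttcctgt
Itgam (chr7:128062390-128062689, plus strand): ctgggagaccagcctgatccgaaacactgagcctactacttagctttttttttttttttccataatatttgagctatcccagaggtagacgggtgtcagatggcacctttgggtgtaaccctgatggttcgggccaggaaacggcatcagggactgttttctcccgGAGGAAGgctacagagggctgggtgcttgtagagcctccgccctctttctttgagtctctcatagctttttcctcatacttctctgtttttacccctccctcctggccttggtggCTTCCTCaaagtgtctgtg
RefSeq gives Fcgr3 2 windows with different starts, and its PU.1 core began 7 bases before the start of the window printed and 16 bases before the start of the other. It began in Trem2 41 bases and in Fcgr1 56 bases before the start. Itgam held it on both strands, 84 bases before the start and from base 32 after it.

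Of 4 receptors of microbial patterns and co-stimulators 1 rose and 3 did not pass, with estimates on both sides of 0. Clec4n, which encodes the lectin Dectin-2, stood at 5.88, 4.11 and 4.35 CPM in Hdac3 CKO libraries, against 2.01, 1.90 and 2.03 CPM in WT libraries. It rose by 1.27 ± 0.22, with an adjusted p in edgeR of 0.0327. Cd14, a co-receptor for endotoxin, stood at 20.6, 32.1 and 12.6 CPM in Hdac3 CKO libraries, against 13.04, 6.63 and 11.0 CPM in WT libraries. Its genotypes overlapped, with a log2 fold change of 1.09 ± 0.34. Cd86, a co-stimulator of T cells, stood at 0.53 ± 0.24. Clec7a, which encodes the lectin Dectin-1 and was singled out after its values were seen, was the only member whose Hdac3 CKO libraries all lay below the WT libraries. Its main row stood at 0.581, 0.775 and 0.581 CPM in Hdac3 CKO libraries, against 1.26, 0.892 and 2.18 CPM in WT libraries. The log2 fold change was -1.15 ± 0.38, with an adjusted p in edgeR of 0.213. The second row, with 3, 7 and 11 counts in Hdac3 CKO libraries and 20, 10 and 26 in WT libraries, stood at -1.14 and overlapped. Both rows lie at 1 locus on chromosome 6 and cannot be taken as separate evidence.

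Of 11 scavenger and resident macrophage receptors, 9 were tested, 1 rose and 8 did not pass, although Hdac3 CKO libraries were above WT libraries for 8 of the 9. Stab1, a scavenger receptor of macrophages and sinusoidal endothelium, stood at 197, 182 and 192 CPM in Hdac3 CKO libraries, against 121.6, 126 and 110 CPM in WT libraries. It rose by 0.67 ± 0.12, with an adjusted p in edgeR of 0.0370, and had the smallest standard error of the members. Siglec1, the sialic acid receptor CD169, stood at 22.7, 11.3 and 17.6 CPM in Hdac3 CKO libraries, against 8.34, 9.13 and 6.59 CPM in WT libraries. The spread in Hdac3 CKO was wide, and its log2 fold change of 1.10 ± 0.25 did not pass. The estimates were 0.80 for Cd68, 0.79 for Msr1, 0.75 for the folate receptor Folr2, 0.73 for the mannose receptor Mrc1, 0.66 for the haemoglobin scavenger Cd163 and 0.58 for the hyaluronan receptor Lyve1. Of the exon bases of Folr2, 75.4% are shared with the antisense model Gm10602, so its value is uncertain where strand was not used. Cd36, a fatty acid and lipoprotein receptor, stood at -0.12 ± 0.16 and was the only tested gene of this group below 0.

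Genes for the uptake of dead cells and for handling lipid split into 2 that rose and 4 that did not pass. Apoe stood at 288, 215 and 225 CPM in Hdac3 CKO libraries, against 114, 96.9 and 109 CPM in WT libraries. Each Hdac3 CKO library was well above every WT library. It rose by 1.18 ± 0.15, with an adjusted p in edgeR of 0.0139, the smallest among the members. Gpnmb, a glycoprotein of macrophages, osteoclasts and osteoblasts, stood at 16.7, 15.9 and 12.0 CPM in Hdac3 CKO libraries, against 5.56, 5.51 and 8.44 CPM in WT libraries, and rose by 1.20 ± 0.22. The receptor kinases Mertk and Axl, which bind dying cells through bridging proteins such as Gas6, stood at -0.18 ± 0.17 and -0.04 ± 0.16 on the log2 scale. Both overlapped between the genotypes. Timd4, a phosphatidylserine receptor, and Cd5l, a secreted protein, had at most 36 counts in any library, and stood at 0.73 ± 0.46 and -0.33 ± 0.68.

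Of the enzymes, Lgmn, a lysosomal endopeptidase, stood at 182, 153 and 134 CPM in Hdac3 CKO libraries, against 92.9, 91.5 and 97.3 CPM in WT libraries, and rose by 0.74 ± 0.14. Lyz2, the lysozyme of macrophages and neutrophils, stood at 52.8, 46.1 and 52.7 CPM in Hdac3 CKO libraries, against 41.6, 42.9 and 70.6 CPM in WT libraries. WT replicate 3 was the highest of all libraries for Lyz2, and the log2 fold change was -0.03 ± 0.20. Lyz2 has a neighbour of closely similar sequence, Lyz1, and its value is uncertain for that reason.

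**Figure D3:**
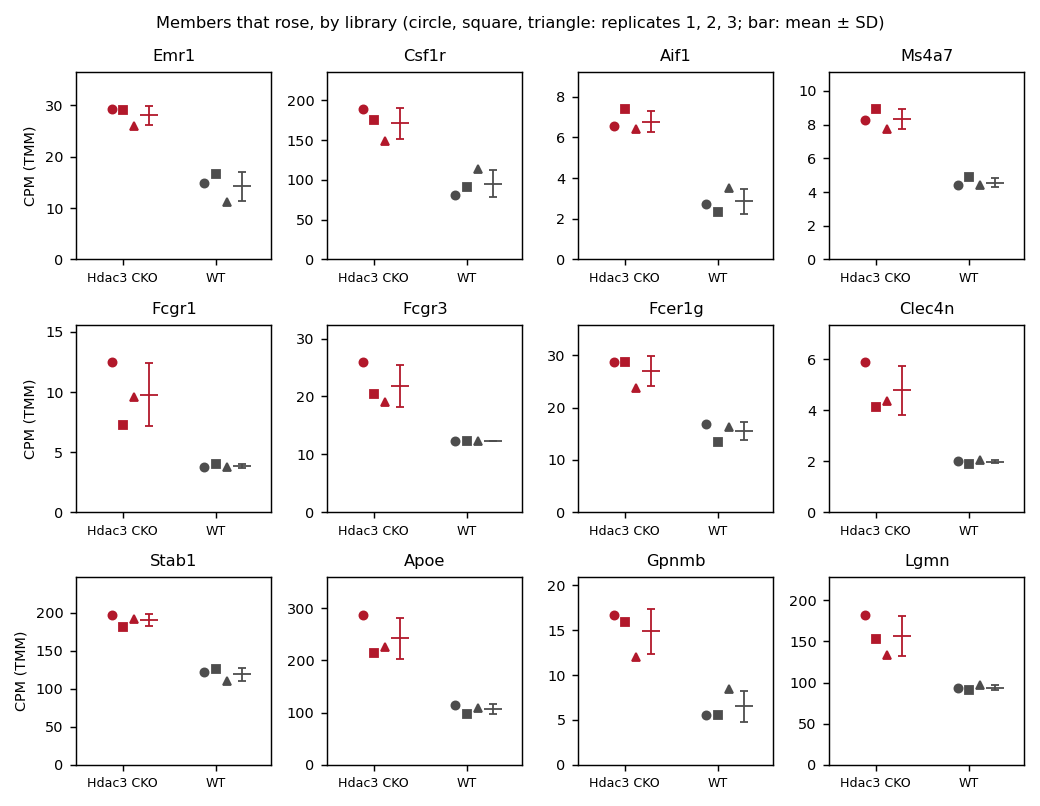
TMM-scaled CPM of the 12 members that rose, with 1 symbol per library and the mean ± SD beside them; Hdac3 CKO is left of WT. For each gene the 3 Hdac3 CKO libraries lie above the 3 WT libraries, with the narrowest gap for Csf1r.

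Levels were also set against Emr1. Among the 12 genes that rose, the log2 ratio of a gene to Emr1 differed between Hdac3 CKO and WT by between -0.32 for Stab1 and 0.32 for Fcgr1. The 12, Emr1 among them, were picked by their fold changes in the same data, which narrows this range. Several members that did not pass, among them Cx3cr1, Cd14 and Siglec1, lay within it too. The lowest differences among tested members were -2.07 for Clec7a, -1.33 for the sparsely counted Cd5l, -1.20 for Mertk, -1.14 for Maf, -1.11 for Cd36, -1.03 for Axl, -0.99 for Lyz2 and -0.85 for Itgam. These ratios describe the same counts and were not tested.

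WT libraries did not order the members in the same way. WT replicate 3 was the highest WT library for 16 of the 35 tested genes and the lowest for 15. Within Hdac3 CKO, replicate 1 was the highest library for 19 of the 35 and the lowest for 7. Hdac3 CKO replicate 3 was the highest for 4 and the lowest for 15. Hdac3 CKO replicate 1 also had the lowest TMM factor, at 0.88, and the highest muscle and osteoblast sums. The part of these differences in the fold changes was not tested. Genes picked after their values were seen show the order among WT libraries. Tyrobp stood at 43.6, 43.6 and 39.9 CPM in Hdac3 CKO libraries, against 19.9, 19.8 and 34.0 CPM in WT libraries. Cd68, a lysosomal glycoprotein, stood at 59.7, 56.6 and 47.6 CPM in Hdac3 CKO libraries, against 24.6, 27.7 and 41.9 CPM in WT libraries. For both genes WT replicate 3 was nearest to the Hdac3 CKO range. Mrc1 stood at 68.0, 111 and 98.3 CPM in Hdac3 CKO libraries, against 62.4, 66.5 and 38.1 CPM in WT libraries, with WT replicate 3 the lowest. The summed level of 12 osteoclast genes, among them Acp5, Ctsk, Mmp9 and Dcstamp, was 3242, 3467 and 2683 CPM in Hdac3 CKO libraries, against 1547, 1637 and 2687 CPM in WT libraries. It was also highest in WT replicate 3 among the WT libraries, and its part in the members' values was not tested. Of these 12 genes 0 rose and 0 fell in edgeR, 8 were higher and 0 lower at an unadjusted p under 0.05, and the smallest p was that of Dcstamp, which acts in cell fusion, at 0.88 ± 0.20. Without WT replicate 3, 3 of the 12 rose, Acp5, Mmp9 and Ocstamp.

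Lists of markers of other blood cells held genes that fell and 1 that rose. The summed level of 10 neutrophil genes was 19.7 to 30.2 CPM in Hdac3 CKO libraries and 91.0 to 277 CPM in WT libraries. In that list 5 of 10 genes fell and 0 rose, with the smallest p for S100a9 at -3.00 ± 0.38, and between 0 and 3 of them passed with 1 library left out. Neutrophils also express several members: of these Fcgr3 and Fcer1g rose, Tyrobp and Cd14 had estimates above 0 and did not pass, and Itgam, Lyz2 and Clec7a stood at 0.13, -0.03 and -1.15 and did not pass. The part of neutrophil RNA in their values was not tested. The sums of 9 measured monocyte genes overlapped, at 388 to 648 CPM in Hdac3 CKO and 455 to 717 CPM in WT. Most of the monocyte sum came from a single gene in every library, so its overlap does not describe the list as a whole. Of 8 B lymphoid genes 2 fell, with the smallest p for Rag1 at -2.57, and their sum was 26.1 to 42.1 CPM in Hdac3 CKO and 59.3 to 86.1 CPM in WT. Most of that sum was Ebf1, which stromal cells also express, at a mean of 30.1 CPM in Hdac3 CKO and 58.9 CPM in WT. Of 10 erythroid genes 2 fell, with the smallest p for Alas2 at -1.01, and their sum was 232 to 311 CPM in Hdac3 CKO and 320 to 512 CPM in WT. Of 8 megakaryocyte genes 5 were tested and 1 rose, Pf4 at 0.97. The sum of the 8 was 102 to 128 CPM in Hdac3 CKO and 67.3 to 86.3 CPM in WT, mostly Vwf, which endothelium also expresses, and Pf4. The other tested genes of that list did not pass and stood at 0.64 (Vwf), 0.09 (Gp1bb), -0.31 (Itga2b) and -0.44 (Ppbp). For Vwf the Hdac3 CKO libraries lay above the WT libraries. Rag1 and Alas2 passed in 0 of the 6 fits with 1 library left out, and Pf4 in 3 of them.

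In the endothelial list, the cell type that shares Lyve1, Stab1 and Cd36 with macrophages, 0 of 9 genes rose or fell in edgeR, with 1 higher and 1 lower at an unadjusted p under 0.05. The sum was 609 to 740 CPM in Hdac3 CKO and 522 to 639 CPM in WT, and Stab2, the sinusoidal relative of Stab1, had the smallest p at -1.73 ± 0.37. The sums of dendritic cell, mast cell and adipocyte markers overlapped, with the smallest p in these lists for Xcr1, Kit and Cidec, at -0.61, -0.33 and 1.67. T and NK markers summed to at most 5.58 CPM, and Cd4 had the smallest p, at 0.87. The sum of 8 muscle genes was 29337 to 48899 CPM in Hdac3 CKO and 26346 to 32088 CPM in WT, and Des had the smallest p, at 0.53. Muscle RNA thus remained after soft tissue was removed. How much of the macrophage RNA came from muscle was not tested. The sum of 8 osteoblast genes, mostly Col1a1, was 42376 to 61463 CPM in Hdac3 CKO and 26635 to 36725 CPM in WT, and 1 of them rose, Dmp1 at 1.14 ± 0.22, which passed in 1 of the 6 fits with 1 library left out. Among cartilage genes Acan had the smallest p, at 0.92 ± 0.70. Every listed marker gene of these types had a count in at least 1 library.

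**Figure D4:**
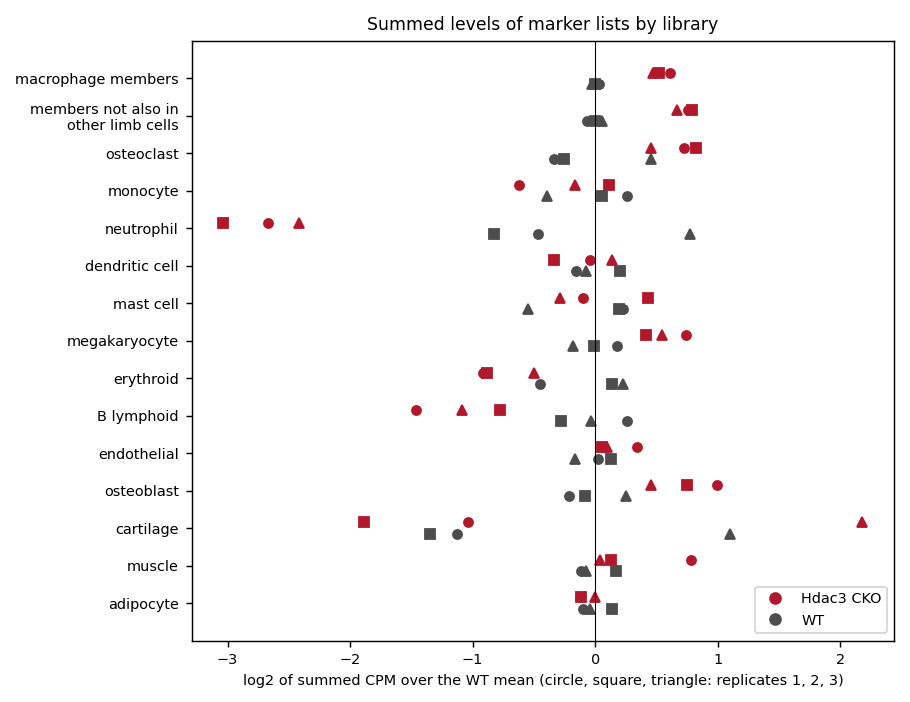
Log2 of the summed CPM of each marker list over its WT mean, with 1 symbol per library. The macrophage, megakaryocyte and osteoblast sums of Hdac3 CKO libraries lie above all WT libraries. The neutrophil, erythroid and B lymphoid sums of Hdac3 CKO libraries lie below all WT libraries. The osteoclast sum of WT replicate 3 lies within the Hdac3 CKO range.

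Growth factors of macrophages and their receptors were looked at next. Of 13 such genes 11 were tested, 1 rose and 1 fell. Csf1, the ligand of Csf1r made by mesenchymal and endothelial cells, stood at 145, 133 and 126 CPM in Hdac3 CKO libraries, against 61.0, 69.7 and 85.5 CPM in WT libraries. Every Hdac3 CKO library was above every WT library, and Csf1 rose by 0.90 ± 0.15, with an adjusted p in edgeR of 0.0290. It passed in 2 of the 6 fits with 1 library left out, those without WT replicate 3 and without Hdac3 CKO replicate 1, and not with library totals. Il34, the second ligand of that receptor, was chosen after its values were seen and stood at 3.25 CPM in Hdac3 CKO and 2.85 CPM in WT, a log2 fold change of 0.19 ± 0.21. Csf3r, the receptor of the granulocyte factor G-CSF, fell to 3.07 CPM in Hdac3 CKO, against 10.4 CPM in WT, a change of -1.76 ± 0.31, and passed in 0 of the 6 fits with 1 library left out.

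Of 16 further transcription factors of myeloid cells 1 rose, Id3, at 0.90 ± 0.16, and 0 fell, with a list median of 0.16. Id3 is widely expressed outside macrophages, and it passed in 2 of the 6 fits with 1 library left out. Irf8, which directs monocyte development and was chosen after its values were seen, stood at 0.17 ± 0.21. Of 30 further macrophage genes 6 rose and 0 fell, with a list median of 0.46. The number that rose was 1 without WT replicate 1, 1 without WT replicate 2, 4 without Hdac3 CKO replicate 3, 5 or 6 without any other library and 12 with DESeq2. The smallest p were those of the complement genes C1qb (1.24 ± 0.14), C1qa (1.25 ± 0.16) and C1qc (1.24 ± 0.16) and of the lysosomal protease Ctss (1.05 ± 0.14). Of 16 receptors and signalling partners of Tyrobp and Fcer1g 15 were tested, and 0 rose and 0 fell in edgeR, with 3 higher and 3 lower at an unadjusted p under 0.05. The smallest p were those of Trem1, a receptor of neutrophils and monocytes, at -1.97 ± 0.47, and of the osteoclast receptor Oscar at 0.66 ± 0.21.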

How the data were processed

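RNA-seq counts were analysed for 3 Hdac3 CKO and 3 WT libraries, grouped by the genotype label and numbered in record order. The authors deposited raw read counts and RPKM values for each gene; the RPKM equal the counts over gene length and a library total 1.15 to 1.39 times the summed counts, whose origin is not given in the sources used here. TopHat2 2.1.0, featureCounts, Subread, bcl2fastq 1.8.4 and the build mm10 are named in the submitters' processing notes. Neither the use of strand nor the annotation is given in the sources used here. Counts were filtered with filterByExpr, which left 20210 genes, scaled by TMM and tested in edgeR 4.0.16 (R 4.3.3) with the robust quasi-likelihood fit, 4 residual degrees of freedom and Benjamini-Hochberg adjustment over all tested genes. A gene rose or fell at an adjusted p under 0.05. The procedure was also run on simulated data, whose outcome is not given here and is not used as evidence for the calls. Alternatives used DESeq2 1.42.0 and limma 3.58.1, other scalings and filters, and fewer libraries. Deposited RPKM served for levels between genes. The labels do not say that the libraries came from separate pups, so p-values reflect no more than how the libraries vary, and this variation may be technical. Members and lists were chosen with earlier results of these data known. Values per library are given for Emr1, Csf1r, members that passed, the 2 members of smallest p per role, and genes said to be picked after their values were seen. Of each further list of macrophage genes the called genes of smallest p, up to 4, are named, or the 2 of smallest p where none was called, and of each list of another cell type the gene of smallest p. Chi3l3, a monocyte marker, was not matched to the table. Single genes of the monocyte list are not reported here.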

Additional observations from a re-analysis of the deposited data

How the results depend on the processing

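Of 593 values of single members under 17 alternatives, 457 kept their direction and their side of the threshold, 107 no longer passed, 19 newly passed and 10 changed sign. The 12 genes that rose stayed above 0 under every alternative. This says little, because they were picked by their calls and their genotypes did not overlap. The number that rose was 12 with RLE size factors, 11 with upper quartile scaling, 17 with no filter and 11 with the stricter filter. It was 2 with library totals, 22 with DESeq2, 8 with limma-voom, 2 with limma on log2(RPKM + 1), 3 with limma on log2(RPKM + 0.1) and 0 without WT replicate 3 and Hdac3 CKO replicate 3. It ranged from 0 to 9 with 1 library left out, and was 9 with no robust moderation, an alternative chosen after seeing the data. Library totals moved the median of all tested genes to -0.18 and left the members' median 0.77 above it. The number that fell was 0 throughout. Signs changed for Itgam (-0.054 with library totals), Lyz2 (0.0088 in limma-voom), and, without both replicates numbered 3, Cd5l and Lyz2 (0.22 each). With 1 library left out Axl ranged from -0.15 to 0.085, Cd5l from -0.99 to 0.11 and Lyz2 from -0.17 to 0.26. None of these passed, and the cause was not tested. No paired analysis was possible because the labels give the genotypes no shared replicate number. Low counts limit Timd4, Cd5l, Marco, Vsig4 and Clec7a.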
